A study of Homo sapiens with 6 samples.

Results

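Levels of 5-methylcytosine (m5C) in messenger RNA were compared before and on the polysomes of HEK293T cells, a line derived from human embryonic kidney, by summing the reads of 3 subpolysomal libraries and of 2 polysomal libraries. A position was kept where each sum held 20 or more reads. Of 542 m5C sites listed in the 6 libraries of the series, 178 in 171 genes met this rule. Every listing had a coverage of 20 reads or more, so any site listed on both sides met this minimum by construction.

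The cells were wildtype, grown in DMEM with serum, and lysed in the presence of cycloheximide (CHX), which holds ribosomes on their RNA. The lysate was run on a sucrose gradient, and polyadenylated RNA of each fraction was treated with bisulfite, after which unmethylated cytosine reads as T while m5C still reads as C. The subpolysomal sum joined free RNA without ribosomes, RNA with a small ribosomal subunit and RNA with a large subunit. The polysomal sum joined light polysomes of 2 to 5 ribosomes and heavy polysomes of more than 5, and the monosome library between them was left out of both. Each fraction was 1 library without replicates. The libraries of a side were different fractions, so tests on their reads compare these libraries and not conditions. The lists hold no expression values, so the identity of the cells could not be checked against marker genes.

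In mRNA, m5C is made by enzymes of the NSUN family. NSUN2 methylates cytosines that are followed by a G-rich triplet, and such sites are called Type I. NSUN6 methylates cytosines in a loop that are followed by UCCA, and these are called Type II. Here sites were typed by sequence alone, with every site not followed by UCCA taken as Type I. This gave 107 Type I and 71 Type II sites.

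The sequences around some of the sites that differed are shown in DNA letters on the strand of the transcript, 5′ to 3′. Each holds 10 bases on either side of the m5C. Capitals mark the m5C and the 4 bases after it, which hold the UCCA of Type II sites. They were read from GRCh37, and they are shown so that the 2 sequence types can be seen on both sides of the comparison. The first 5 sites were higher before the polysomes, and the last 4 were lower.
CHCHD10: caccatgcctCGGGGaagccg
SLC25A6: ccgccgccatCTCCAagacgg
C19orf70: cccgcgagtaCTCCAaggagg
QARS: cctcccgactCAGGGataccc
GNAS: ggggcccggcCGAGGcaataa
MT-RNR1: acacaccgccCGTCAccctcc
PVRL2: ccctctgcatCTCCAaagagg
RPS6KB2: cctgggccatCTCCActccca
CABIN1: tgaaggtgtcCTCCAtgcttc
In these sequences CHCHD10, QARS and GNAS carry the G-rich triplet of Type I sites, and SLC25A6, C19orf70, PVRL2, RPS6KB2 and CABIN1 carry UCCA. The MT-RNR1 site has neither.

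Pooled m5C levels lay higher before the polysomes at most sites, by a small amount. The level was higher in the subpolysomal sum at 117 of 178 sites, and the median difference, subpolysomal minus polysomal, was 2.12 percentage points with quartiles of -0.939 and 6.30. The sites are not replicates, so this median is a description. The C and T reads of both sums were compared per site by Fisher's exact test (two-sided), with Benjamini-Hochberg adjustment over the 178 sites and a threshold of 0.05, and 26 sites in 25 genes differed. The level was higher before the polysomes at 20 sites, which is 11.2% of those compared, and lower at 6 sites, which is 3.37%. Among the 20 the median difference was 9.92 points, and among the 6 it was -21.3 points. The differences ran from 2.16 to 37.9 points in the first direction and reached -31.2 points in the second. Reads had no molecular identifiers, so amplified copies of 1 molecule may count as separate reads. The tests and intervals take each read as independent and may therefore be too narrow. They do not cover spread between libraries.

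**Figure D1:**
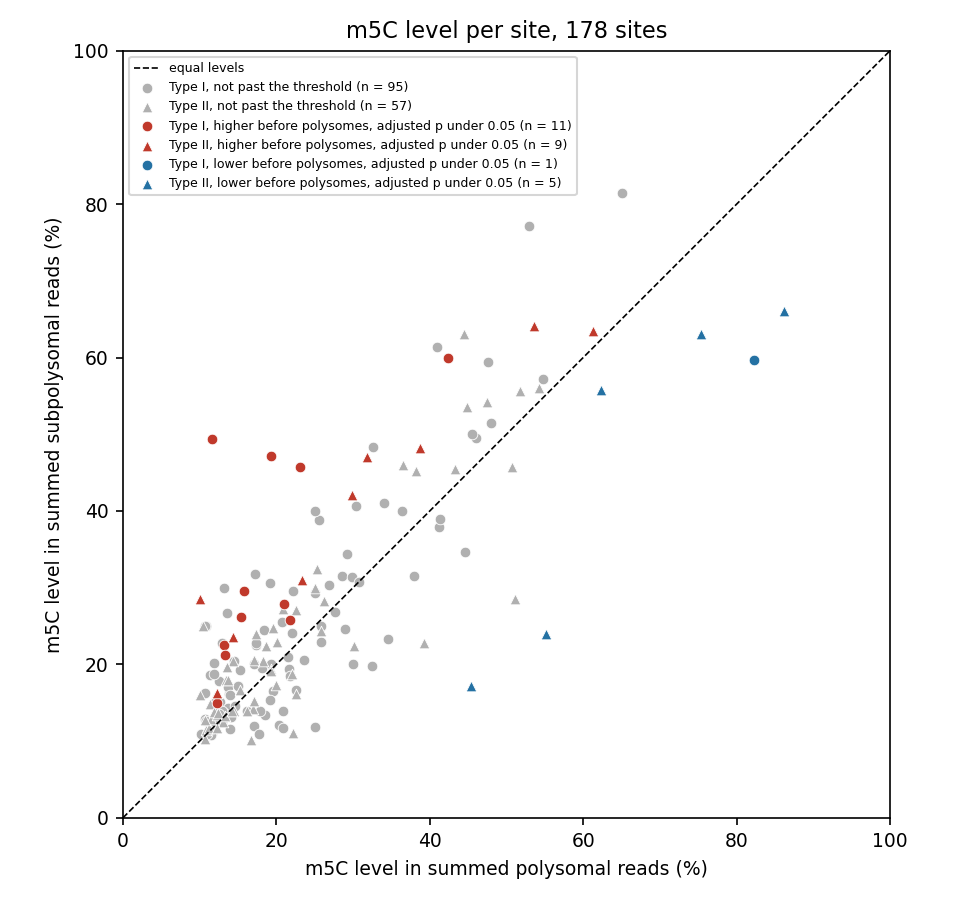
Pooled m5C level of each of 178 sites, with the polysomal sum on the x axis and the subpolysomal sum on the y axis, both in percent. Circles are Type I and triangles Type II sites, red and blue points passed the threshold, and the dashed line marks equal levels. Of the 26 coloured points, 20 lie above the line and 6 below it, and 5 of those 6 are triangles.

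The lists set a limit on what can be seen. They hold sites called in a library, with a lowest level of 10% and a lowest coverage of 20 reads. A library counted in a sum only where it listed the site, and a missing listing does not show that the site was unmethylated there. The 2 sums held 734837 subpolysomal and 116518 polysomal reads at the compared sites. Depth was uneven, with 46.7% of the subpolysomal reads at the mitochondrial MT-RNR1 site and 84.3% at the 5 deepest sites. The median site had 109 subpolysomal and 138.5 polysomal reads. The free library, which supplied 387590 of the subpolysomal reads, listed 69 of the 178 sites.

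Of the gene groups drawn by symbol, a list of nuclear genes for the mitochondrial inner membrane and mitochondrial ribosome had the most calls. It held 8 compared sites in 8 genes, and 5 of them (62.5%, against 11.2% of all compared sites) were higher before the polysomes while none was lower. Its sites were deeper, with medians of 2336.5 subpolysomal and 1056 polysomal reads, against 109 and 138.5 over all sites. More reads let a smaller difference pass, so the 2 shares are not at like depth. All 8 differences were positive, with a median of 5.84 points against 2.12 over all sites. The group was drawn up with earlier results of these data known, so its counts are not independent evidence of a direction. Other nuclear genes for mitochondrial proteins fell outside its symbol pattern. Examples, which are not a full list, were CS, citrate synthase, at 5.86 points (-0.876 to 11.3) and GCDH, glutaryl-CoA dehydrogenase, at 14.2 points (-1.36 to 36.5). GCDH was listed in 1 library on each side, with 20 subpolysomal and 111 polysomal reads. ADCK4, a kinase of coenzyme Q synthesis, was at 8.25 points (0.0568 to 17.2). None of these 3 passed the threshold, and they do not show a direction for such genes. The largest difference of the 178 sites was in CHCHD10 (ENSG00000250479), a protein of the intermembrane space tied to cristae. Its Type I site at chr22:24110055 on the minus strand lies in coding sequence of exon 1 of 4. Its level was 47.6% in the free, 55.2% in the small subunit and 51.1% in the large subunit library, against 11.6% in the heavy polysome library. All 3 subpolysomal libraries stood far above the 1 polysomal library that listed the site. Pooled, this was 49.5% (95% Wilson interval 47.4 to 51.5, 2277 reads) against 11.6% (8.13 to 16.2, 242 reads), a difference of 37.9 points (exact adjusted p = 2.79e-31). The light polysome library did not list the site, so without the heavy polysome library it could not be compared. With the monosome library added to the polysomal sum the difference was 16.3 points and passed.

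SLC25A6 (ENSG00000169100) encodes an ADP/ATP carrier of the inner membrane. Its Type II site, at chrX:1510840 on the minus strand in coding exon 1 of 4, had levels of 32.0%, 30.7% and 30.3% in the free, small and large subunit libraries and of 26.2% and 20.1% in light and heavy polysomes. The subpolysomal libraries lay close together, and both polysomal levels were below them. The pooled levels were 31.0% and 23.4%, a difference of 7.6 points (95% interval 6.44 to 8.73, exact adjusted p = 2.33e-33). The difference was 4.74 points without the heavy polysome library and 1.83 points with the monosome library added to the polysomal sum, and it still passed the threshold in both.

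C19orf70 (ENSG00000174917) encodes a subunit of the MICOS complex, which shapes cristae junctions. At its Type II site, chr19:5678604 on the minus strand in coding exon 4 of 4, the levels were 22.2%, 26.6% and 27.5% before the polysomes and 14.4% and 14.1% on them. The groups did not overlap, and the pooled difference was 9.29 points (7.35 to 11.2, exact adjusted p = 3.27e-19). It passed the threshold in each of 5 fits that left out 1 library.

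ATP5SL (ENSG00000105341), an assembly factor of complex I, had 50.0%, 41.8% and 40.2% at its Type II coding site at chr19:41944214 on the minus strand, against 32.7% and 28.0% in light and heavy polysomes. The difference of 12.2 points (4.50 to 19.9, exact adjusted p = 0.0197) did not pass without the small subunit library, at 12.5 points, or without the heavy polysome library, at 9.40 points. NDUFB7 (ENSG00000099795), a subunit of complex I, carries a Type I site at chr19:14677651 on the minus strand in coding exon 2 of 3. Its levels were 25.3%, 28.6% and 25% before the polysomes and 22.3% and 20.4% on them, a difference of 4.07 points (2.10 to 6.10, exact adjusted p = 0.000537). In both genes every subpolysomal library was above both polysomal libraries.

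The other 3 members of the group did not pass the threshold. They were MRPS25, a mitochondrial ribosomal protein, with a difference of 2.96 points (-7.39 to 13.8), TIMM50, a subunit of the inner membrane translocase, with 1.89 points (-10.9 to 14.3), and SLC25A39, a carrier protein, with 0.472 points (-1.40 to 2.24). The first 2 intervals are wide enough to hold differences of the size seen in C19orf70, while that of SLC25A39 is not. PET100 (ENSG00000229833), an assembly factor of complex IV whose symbol is outside the group, also differed. Its Type II site at chr19:7696446 on the plus strand, in the 3′ UTR, had 16% and 18.5% in the free and small subunit libraries and 12.3% and 12.1% in light and heavy polysomes. The difference was 3.97 points (exact adjusted p = 0.000537), and without the free library it was 6.25 points and did not pass. The 21 bases at this site occur at 1 other place in the genome.

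**Figure D2:**
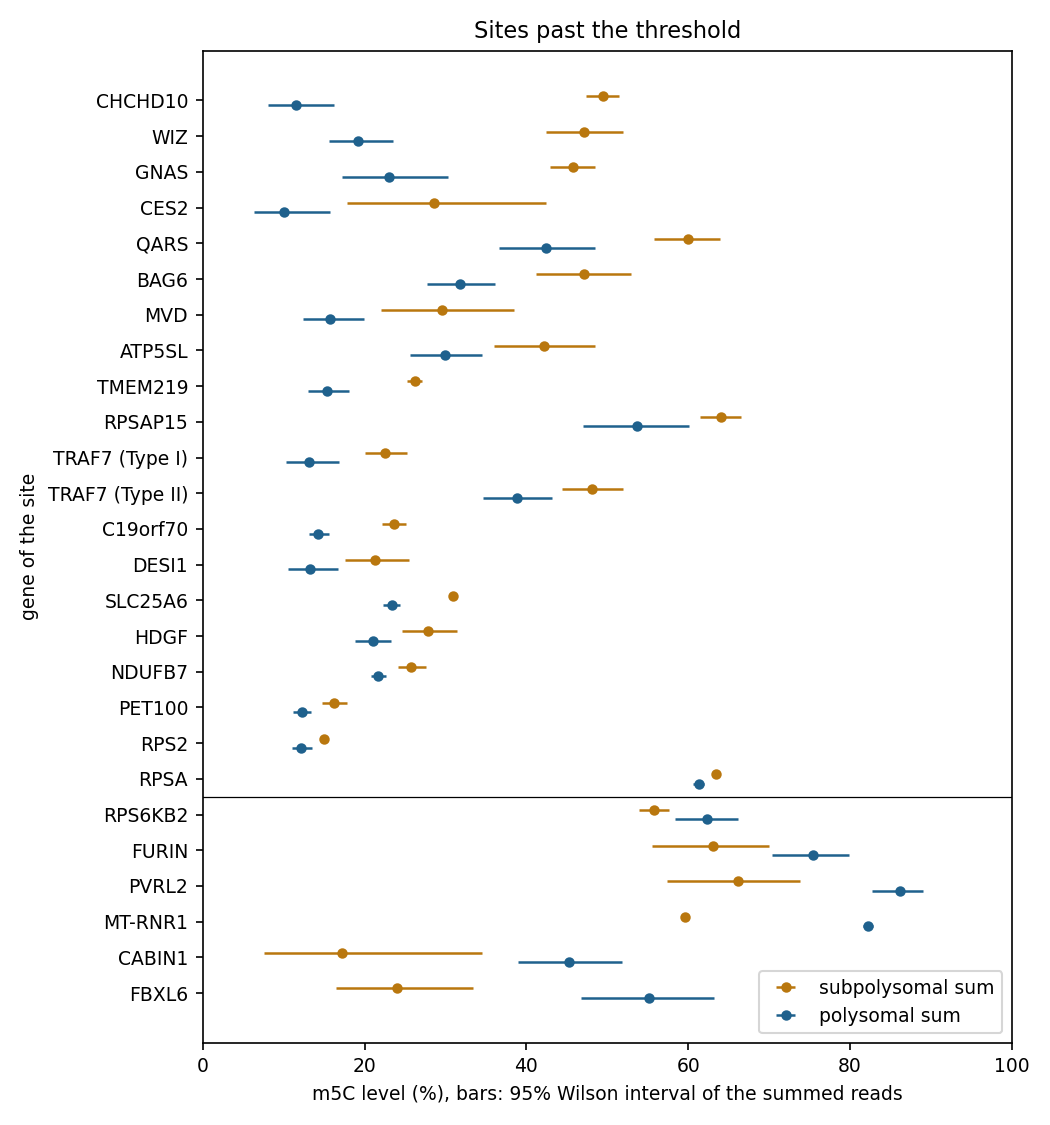
Pooled m5C level in percent (x axis) of the 26 sites past the threshold (y axis), for the subpolysomal sum (ochre) and the polysomal sum (blue), with 95% Wilson intervals of the summed reads. The 20 sites above the black line were higher before the polysomes, led by CHCHD10 at 49.5% against 11.6%, and the 6 below it were lower.

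Differences in genes of the translation apparatus were mostly small. Both compared sites in cytosolic ribosomal protein genes were called as higher before the polysomes, as 11.2% of all sites were, with differences of 2.16 and 2.78 points. They were far deeper, with medians of 103842 subpolysomal and 10737 polysomal reads, against 109 and 138.5 over all sites. Smaller differences can pass at that depth, so the shares are not comparable. RPSA (ENSG00000168028), a protein of the small subunit, has a Type II site at chr3:39450197 on the plus strand in coding exon 3 of 7. Its level was 62.9%, 63.2% and 66.1% in the free, small and large subunit libraries, 63.9% in light and 55.2% in heavy polysomes. The groups overlapped, since light polysomes were above the free and small subunit libraries. The pooled difference of 2.16 points (1.42 to 2.90, exact adjusted p = 2.45e-07) was -0.426 points without the heavy polysome library, 8.27 points without the light one and -3.73 points with the monosome library in the polysomal sum. The processed pseudogene RPSAP15 (ENSG00000237506, chrX:86958997, minus strand) carries the same 21 bases, which occur at 17 other places. Its levels of 63.4%, 64.8% and 64.6% against 58.0% and 45.5% gave 10.4 points (3.47 to 17.5, exact adjusted p = 0.0262). This call was lost without the small subunit library, at 10.1 points, and without the heavy polysome library, at 6.03 points, and the difference was 18.6 points without the light one and -0.131 points with the monosome library in the polysomal sum. Reads of RPSA and RPSAP15 cannot be told apart by these bases, so the assignment of the pseudogene's reads is uncertain.

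RPS2 (ENSG00000140988), another small subunit protein, has a Type I site at chr16:2014563 on the minus strand in coding exon 2 of 7. It had 15.1%, 14.6% and 15.4% before the polysomes and 11.8% and 13.3% on them, a difference of 2.78 points (1.5 to 3.96, exact adjusted p = 0.000469) that was 1.73 points and did not pass without the light polysome library, and 0.365 points, also not past the threshold, with the monosome library in the polysomal sum. Its 21 bases occur at 10 other places. Of the ribosomal protein pseudogenes RPS2P55 had a difference of 5.60 points (-3.51 to 11) and RPS2P5 of 0.638 points (-1.07 to 2.20), and neither passed.

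Of 7 sites in genes for translation factors, tRNA synthetases and mRNA-binding proteins, 1 was called, a share of 14.3% that is near the 11.2% over all sites, and the median difference was 1.28 points. It was QARS (ENSG00000172053), the glutaminyl-tRNA synthetase, at chr3:49141833 on the minus strand in coding exon 2 of 24. This Type I site had 62.8% and 59.0% in the small and large subunit libraries and 44.8% and 38.0% in light and heavy polysomes, with no listing in the free library. The groups did not overlap, and the difference of 17.5 points (10.2 to 24.6, exact adjusted p = 6.41e-05) passed in each fit that left out 1 library and, at 8.92 points, with the monosome library in the polysomal sum. The fit without the free library could not change this difference. PABPC1, the cytoplasmic poly(A)-binding protein, had 19.4% and 19.3% with a difference of 0.0956 points (-1.8 to 1.88). The initiation factor EIF4B had 12.9% and 11.5%, the latter in the light polysome library alone, a difference of 1.42 points (-0.675 to 3.38). Differences for the release factor ETF1, the initiation factor subunit EIF2S3, the isoleucyl-tRNA synthetase IARS and the RNA-binding protein HDLBP lay between -0.607 and 2.18 points. No gene of the m5C machinery list, which held 15 writers, readers and erasers such as NSUN2, NSUN6, ALYREF and YBX1, was listed in any library.

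Among the other sites that were higher before the polysomes, the widest differences were in WIZ and GNAS, both of Type I. WIZ (ENSG00000011451), a zinc finger partner of histone methyltransferases, had 47.1% in the large subunit library against 30.9% in light and 12.3% in heavy polysomes at chr19:15536427 on the minus strand in coding exon 10 of 13. The difference was 27.9 points (21.5 to 33.9, exact adjusted p = 2.55e-15). It was 16.2 points and still past the threshold without the heavy polysome library, and without the large subunit library the site was not compared. GNAS (ENSG00000087460), which encodes the stimulatory G protein alpha subunit, had 44.2% and 49.2% in the small and large subunit libraries and 28.7% and 14.5% in light and heavy polysomes. This site, at chr20:57466440 on the plus strand in the 5′ UTR, differed by 22.6 points (14.9 to 29.2, exact adjusted p = 9.81e-07) and did so in each fit without 1 library. The free library did not list the GNAS site, so the fit without it could not change the difference. At both genes the heavy polysome library was the lowest of all.

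TMEM219 (ENSG00000149932), a membrane receptor, had 26.1%, 27.3% and 24.5% before the polysomes and 15.2% and 16.1% on them at chr16:29979433 on the plus strand in coding exon 4 of 6. Its difference was 10.9 points (7.97 to 13.4, exact adjusted p = 1.92e-10), and without the light polysome library it was 10.1 points with an exact adjusted p of 0.0563. BAG6 (ENSG00000204463), a chaperone of membrane protein quality control, had 45.7% and 47.4% in the small and large subunit libraries against 36.4% and 29.1% in light and heavy polysomes. This Type II coding site at chr6:31611911 on the minus strand differed by 15.3 points (8.04 to 22.5, exact adjusted p = 0.000537). The call was lost without the large subunit library, at 13.9 points, and without the heavy polysome library, at 10.7 points. The subpolysomal libraries were above both polysomal libraries in the 2 genes.

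TRAF7 (ENSG00000131653), an E3 ubiquitin ligase, was called at 1 site of each type. The Type I site at chr16:2226360 on the plus strand in coding exon 20 of 21 had 14.5%, 24.2% and 22.7% before the polysomes and 13.2% in the light polysome library, a difference of 9.40 points (exact adjusted p = 0.000537). The Type II site at chr16:2225897 on the same strand in coding exon 18 of 21 had 35%, 51% and 47.5% against 40.8% and 35.2%, a difference of 9.36 points (exact adjusted p = 0.0154). The 2 pooled differences were of like size, although the Type II libraries overlapped and the free library, with 20 reads, was lowest. The first site was not compared without the light polysome library. The second did not pass without the small subunit, large subunit or heavy polysome library, at 8.16, 10.8 and 7.33 points.

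The last 4 sites that were higher before the polysomes were thinner or less even. MVD (ENSG00000167508), an enzyme of cholesterol synthesis, had 30.6% and 28.8% in the small and large subunit libraries and 15.2% and 16% in the polysomal ones at its Type I coding site chr16:88721771 on the minus strand. The difference of 13.8 points (5.15 to 23.3, exact adjusted p = 0.0154) was 13, 14.8 and 14.4 points and not past the threshold without the small subunit, large subunit and heavy polysome library. HDGF (ENSG00000143321), a growth factor, had 20.8%, 29.0% and 27.3% against 21.3% and 20.7% at a Type I site in its 3′ UTR, chr1:156713158 on the minus strand. Its levels overlapped, and the difference of 6.86 points (exact adjusted p = 0.00794) was 5.82 and 6.58 points and not called without the small subunit and heavy polysome library. DESI1 (ENSG00000100418), a deSUMOylating peptidase, had 27.2%, 16.9% and 13% against 13.3% in light polysomes at a Type I site in its 5′ UTR, chr22:42016869 on the minus strand. Its difference of 7.97 points (exact adjusted p = 0.0189) came to 1.28 points and did not pass without the free library, and without the light polysome library it was not compared. CES2 (ENSG00000172831), a carboxylesterase, was listed in 1 library on each side, with 28.6% of 49 reads in the large subunit library and 10.1% of 159 reads in the light polysome library at a Type II site in its 5′ UTR, chr16:66969432 on the plus strand. This gave 18.5 points (6.39 to 32.9, exact adjusted p = 0.0197), and without either library the site was not compared.

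**Figure D3:**
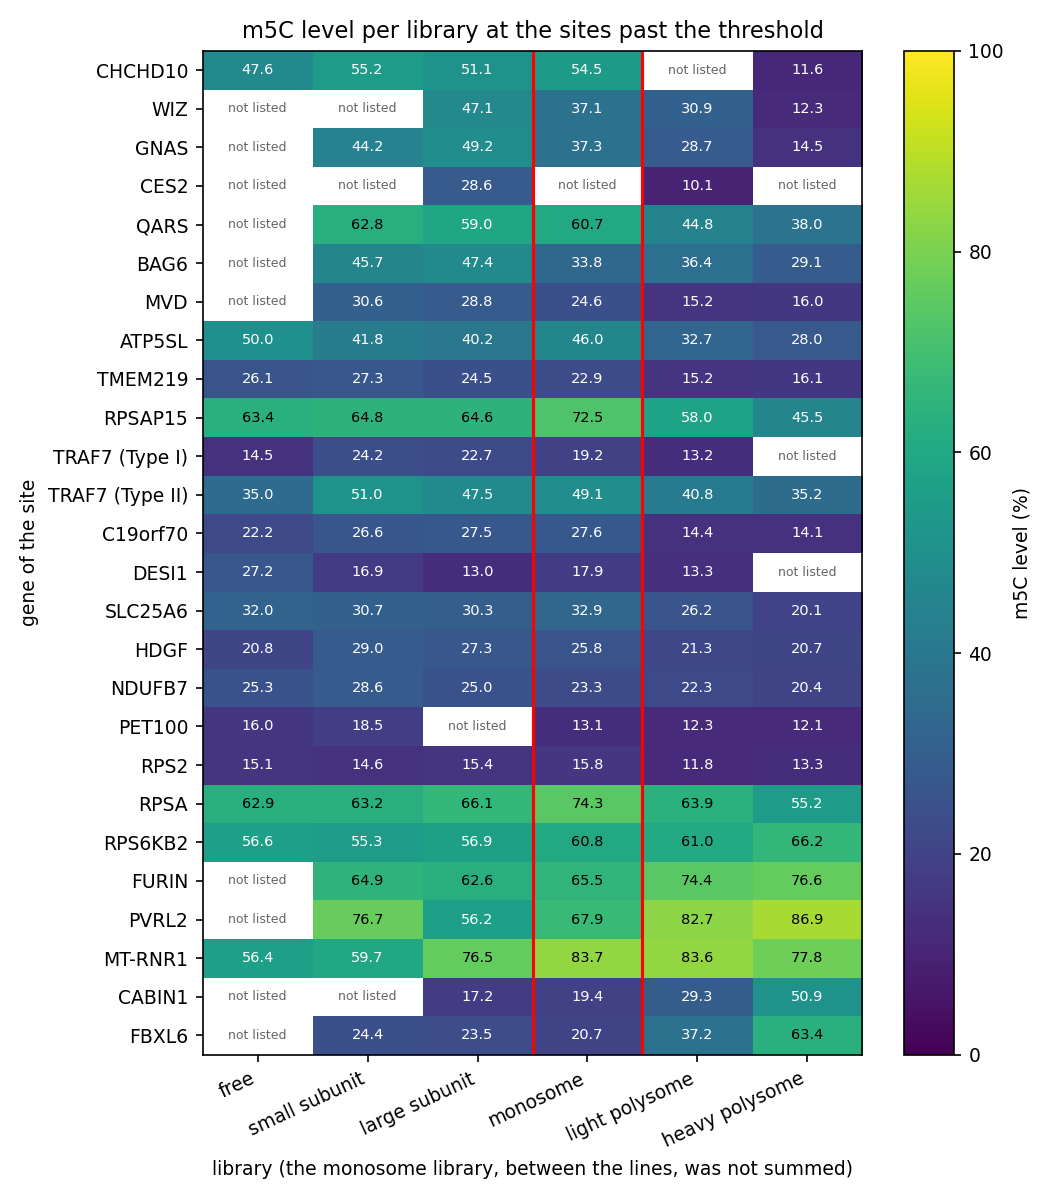
Level of m5C in percent (colour and number in each cell) at the 26 sites past the threshold (rows) in each of the 6 libraries (columns), with the monosome library, which was not summed, between the red lines. The upper 20 sites were higher in the subpolysomal sum and the lower 6 in the polysomal sum, and white cells mark libraries that did not list the site.

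At 6 sites the level was lower before the polysomes, and 5 of them were Type II sites of nuclear genes. Without the heavy polysome library the calls of a lower level in nuclear genes were lost, and the MT-RNR1 call was kept. That fit also dropped many polysomal reads, 382 of 463 at PVRL2, so a lost call need not mean a smaller difference. The 5 nuclear differences kept their sign, and only those of FBXL6 and CABIN1 moved by over 1.5 times. The sixth site was in the 12S ribosomal RNA of mitochondria, MT-RNR1 (ENSG00000211459), a part of mitochondrial and not of cytosolic ribosomes. Its site at position 1488 of the MT chromosome, on the plus strand, had 56.4%, 59.7% and 76.5% in the free, small and large subunit libraries and 83.6% and 77.8% in light and heavy polysomes. The polysomal levels were the higher ones, but the large subunit library was close to the heavy polysome library. The pooled difference was -22.6 points (-23.2 to -21.9), with an adjusted p below the smallest number that could be written, and it stayed past the threshold in each fit without 1 library. With equal weight for each library the difference was -16.5 points, and the free library gave 198440 of the 343451 subpolysomal reads. The 21 bases occur at 6 other places in the genome.

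The widest of the 6 was FBXL6 (ENSG00000182325), an F-box protein of a ubiquitin ligase, at chr8:145580656 on the minus strand in coding exon 4 of 9. It had 24.4% and 23.5% in the small and large subunit libraries against 37.2% and 63.4% in light and heavy polysomes. The difference was -31.2 points (-42.2 to -18.6, exact adjusted p = 3.67e-05), from 96 and 136 reads, and it was -13.3 points and not past the threshold without the heavy polysome library. CABIN1 (ENSG00000099991), a calcineurin-binding protein, had 17.2% of 29 reads in the large subunit library and 29.3% and 50.9% in light and heavy polysomes at chr22:24560499 on the plus strand in coding exon 30 of 37. Its difference of -28.1 points (-39.7 to -9.65, exact adjusted p = 0.0322) was -12.1 points and not called without the heavy polysome library, and without the large subunit library the site was not compared. In both genes the heavy polysome level was the highest of all.

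PVRL2 (ENSG00000130202), the cell adhesion protein nectin-2, had 76.7% and 56.2% in the small and large subunit libraries and 82.7% and 86.9% in light and heavy polysomes. This coding site at chr19:45375183 on the plus strand differed by -20.0 points (-29.2 to -11.6, exact adjusted p = 2.58e-05), and by -9.51 points without the large subunit and -16.6 points without the heavy polysome library, neither past the threshold. FURIN (ENSG00000140564), a protease of the secretory pathway, had 64.9% and 62.6% against 74.4% and 76.6% at a site in its 3′ UTR, chr15:91425541 on the plus strand. The difference was -12.3 points (-21.1 to -3.71, exact adjusted p = 0.0404). It lay between -13.5 and -10.5 points and did not pass without the small subunit, large subunit, light polysome or heavy polysome library. The 2 sites were above 50% in every library that listed them.

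RPS6KB2 (ENSG00000175634), a kinase that phosphorylates the small subunit protein S6, was the one nuclear gene of the 6 that every library listed. At chr11:67200245 on the plus strand, in coding exon 7 of 15, it had 56.6%, 55.3% and 56.9% before the polysomes and 61.0% and 66.2% on them. The subpolysomal libraries lay close together and below both polysomal libraries. The difference of -6.56 points (-10.8 to -2.20, exact adjusted p = 0.0262) did not pass without the small subunit library, at -5.46 points, the light polysome library, at -10.4 points, or the heavy polysome library, at -5.24 points.

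The calls were set beside sequence type, position in the transcript and predicted structure. Type I sites had 11 higher and 1 lower call before the polysomes with a median difference of 2.18 points, and Type II sites had 9 higher and 5 lower calls with a median of 1.99 points. Over all sites 11.2% were higher and 3.37% lower, against 10.3% and 0.935% of Type I and 12.7% and 7.04% of Type II sites. Type II minus Type I, the medians differed by -0.189 points. This was 0.706 points over the sites listed in all 5 libraries and 0.227 points over the sites with a pooled level of 20% or more, so the order of the types was not stable. Of the Type I sites, the 69 with a G-rich triplet had 10 higher and no lower calls and a median of 2.78 points, while the other 38 had 1 call in each direction and a median of 0.978 points. In coding sequence 14 of 90 sites were higher and 4 were lower before the polysomes, and the median was 2.61 points. In 3′ UTRs 2 of 62 sites were higher and 1 was lower, with a median of 1.33 points. In coding sequence the shares of 15.6% higher and 4.44% lower lie near the 11.2% and 3.37% over all sites. The coding median was 1.28 points above that of 3′ UTRs, but over the sites in all 5 libraries the difference was -0.849 points and over those of 20% or more -0.223 points. In 5′ UTRs 3 of 15 sites were higher and none was lower, with a median of 2.35 points. Of the 26 calls 18 were in coding sequence, where 90 of the 178 compared sites lie. In a fold of the sequence with 50 bases on either side, the m5C was unpaired at 5 of the 6 sites with a lower level before the polysomes and at 8 of the 20 with a higher one, against 86 of all 178. These shares were not tested.

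**Figure D4:**
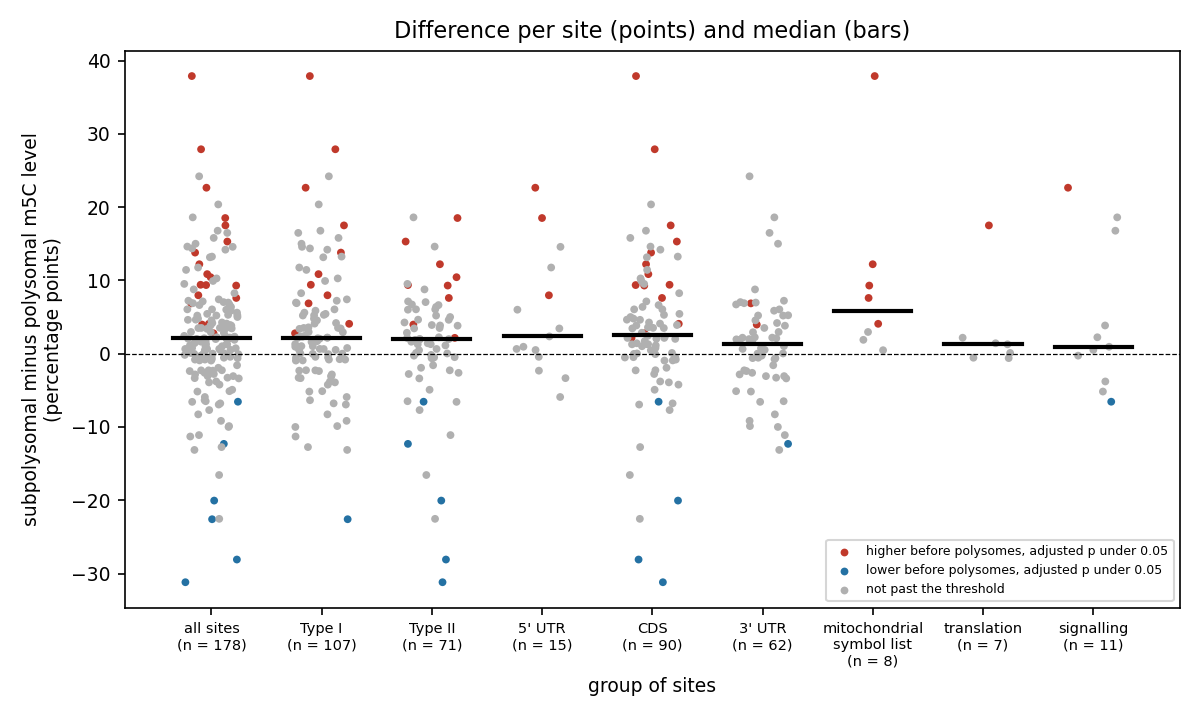
Difference in pooled m5C level, subpolysomal minus polysomal in percentage points (y axis), for each site in groups of sites (x axis), with black bars at the medians. Red and blue points passed the threshold as higher and lower before the polysomes. All 8 sites of the symbol list of mitochondrial inner membrane and mitochondrial ribosome genes lie above 0, and the 2 types have medians of 2.18 and 1.99 points.

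The single libraries were then compared, since a sum can stand for unlike libraries. Of 33 sites listed in all 5 summed libraries, every subpolysomal level was above both polysomal levels at 9 sites (27.3%) and below both at 3 sites (9.09%), and the sides overlapped at 21. Of the 10 higher sites among these 33, 7 did not overlap, and the other 3 were RPSA, HDGF and the Type II site of TRAF7. Both lower sites, MT-RNR1 and RPS6KB2, did not overlap. With 3 libraries against 2, the smallest two-sided p of an exact permutation test is 0.2, so no site can pass that test. When limma was fitted to the 33 sites with the libraries of a side taken as if they were replicates, 0 sites passed at an adjusted p under 0.05 and 7 had an unadjusted p under 0.05, of which 5 were higher before the polysomes. The smallest adjusted p was 0.0576, for C19orf70 and TMEM219.

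Few differences within a side passed a test at this depth, which does not show that the levels were even. A chi-square test found unequal subpolysomal levels at 2 of 98 sites (2.04%), MT-RNR1 and RPSA, and unequal polysomal levels at 5 of 106 sites (4.72%), MT-RNR1, SLC25A6, WIZ, RPSA and GIPC1. All but GIPC1 were among the 26 called sites, and the heavy polysome library was the lower one at all 5. At an unadjusted p under 0.05 there were 15 subpolysomal and 21 polysomal sites. The levels in light and heavy polysomes were 26.2 points apart at FBXL6 and 21.6 points apart at CABIN1. At GIPC1, a scaffold protein, the levels were 20.6% in light and 11.8% in heavy polysomes, and its pooled difference of 4.10 points between the sides did not pass. The median range within a side was 5.00 points over 105 subpolysomal sites and 4.75 points over 108 polysomal sites, against a median absolute difference between the sides of 4.20 points. These medians were of like size, but the last is over all 178 sites and compares sums, while the ranges compare single libraries. At 15 of 20 called sites with 2 or more libraries on each side, the difference between the sides was larger than both ranges. These sites were selected by that difference, so the count is not independent support.

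The monosome library was in neither sum and gives a further reading of the called sites. It listed 19 of the 20 sites that were higher before the polysomes, and at 16 of these its level was nearer to the subpolysomal sum. The exceptions were PET100, BAG6 and NDUFB7. The monosome level was above both sums at 9 of the 19 and between them at the other 10. Among the 9 were C19orf70 at 27.6%, CHCHD10 at 54.5% and QARS at 60.7%. Of the 6 sites that were lower before the polysomes, 4 had a monosome level nearer to the subpolysomal sum. These were FBXL6 at 20.7%, CABIN1 at 19.4%, PVRL2 at 67.9% and FURIN at 65.5%. MT-RNR1 at 83.7% and RPS6KB2 at 60.8% were nearer to the polysomal sum. These counts were not set beside a share over all compared sites, so they do not show a trait of the called sites. With the monosome library added to the polysomal sum, 17 of the 26 sites still passed in the same direction. The other 9 were RPSA, RPSAP15 and RPS2, given above, and the Type II site of TRAF7 at 4.98 points, ATP5SL at 8.99 points, MVD at 12.6 points, DESI1 at 6.91 points, CABIN1 at -24.9 points and FURIN at -10.7 points. TMEM219 at 7.09 points and the Type I site of TRAF7 at 6.11 points also moved by over 1.5 times and passed. With the library added to the subpolysomal sum instead, 25 of the 26 passed, all but RPS6KB2 at -5.81 points.

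The remaining 152 sites did not pass, and most of their intervals were wide. The median width of their 95% intervals was 21.6 points. Of these sites 23 had pooled levels 10 points or more apart, 16 with the higher level before and 7 with the higher level on the polysomes, and the median number of reads on the thinner side was 30, against 391.5 for the 26 called sites. The widest, chosen after their values were seen, were SLC35B4, a nucleotide sugar transporter, with 77.1% against 52.9% (exact adjusted p = 0.103) and SLC22A17, a membrane transporter, with 28.6% against 51.1% (exact adjusted p = 0.385). For 9 sites the interval lay within 5 points of 0. Among them were NT5DC2, with 14.6% on both sides and a difference of -0.0269 points (-1.39 to 1.33), MARCKSL1 with 0.0305 points (-1.62 to 1.8) and the NME1-NME2 site in the 5′ UTR with 0.643 points (-0.568 to 1.76). A difference of more than 5 points was therefore outside the interval at NT5DC2, MARCKSL1, NME1-NME2, PABPC1, EIF4B, EIF2S3, SLC25A39, GPAA1 and RPS2P5. This holds only for the libraries that listed the site. At EIF4B the polysomal sum was the light polysome library alone. A library that did not list a site may lie below the lowest listed level of 10%, which was not tested.

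**Figure D5:**
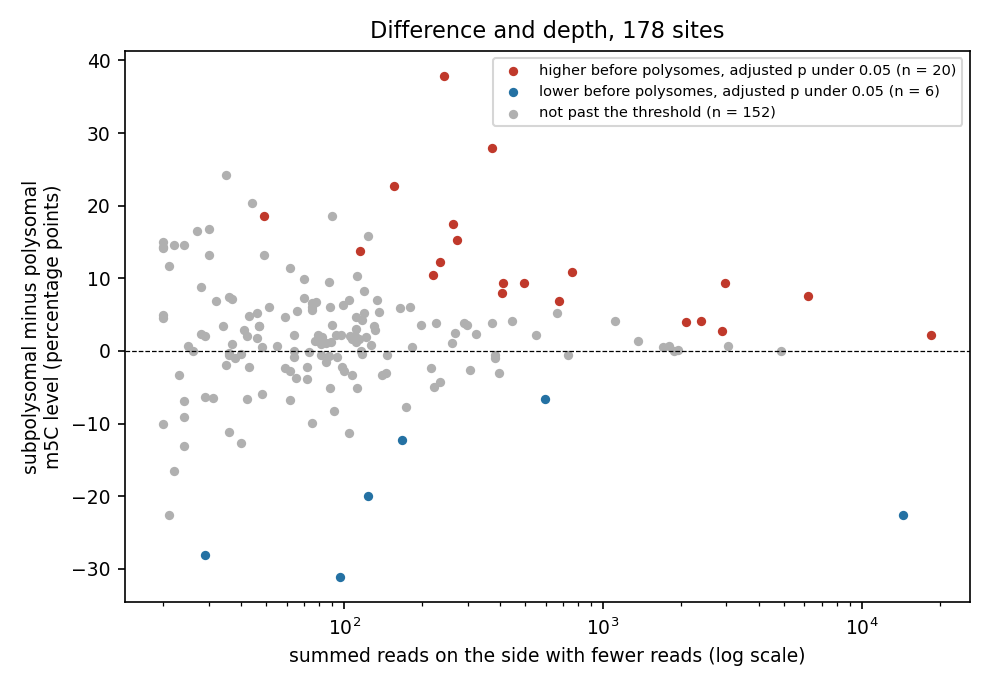
Difference in pooled m5C level, subpolysomal minus polysomal in percentage points (y axis), against the summed reads of the side with fewer reads on a log scale (x axis), for 178 sites. Grey points beyond 10 points in either direction crowd at the left, where reads are few, and the median of the coloured points is 391.5 reads.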

How the data were processed

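Polyadenylated RNA of 6 gradient fractions was profiled by RNA bisulfite sequencing, 1 library per fraction. Per the submitters' processing notes, cutadapt 1.13, Trimmomatic 0.36, HISAT2 2.10, Bowtie2 2.2.9 and SAMtools were used with GRCh37, and the methods of the study describe mapping to the converted genome and transcriptome and removal of poorly converted reads, sites and genes. The coverage deposited by the authors is a count, per site, of reads carrying C or T, with no scaling for library size. The deposited m5C level is the fraction of those reads with C, as the authors computed it. The P-value deposited by the authors, from their binomial test, was not used. Whether counting came before or after the removal of poorly converted reads is not given in the sources used here, and a strict removal could lower a level. The files list called sites alone.

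C reads were taken as level times coverage, which departed from whole numbers by at most 9.09e-12. Groups were taken from the labels, reads were summed per site over the libraries that listed it, and sites with 20 or more reads on each side were compared by Fisher's exact test with Benjamini-Hochberg adjustment. Single sums carry 95% Wilson intervals, and differences carry Newcombe intervals. Levels within a side were compared by a chi-square test where expected counts were 5 or more. limma 3.58.1 was run on arcsine square-root levels as an alternative. Sites were placed in GENCODE 44 transcripts lifted to GRCh37, and sequences were read from that genome and folded with RNAfold 2.7.2. Other places of a sequence are exact matches of its 21 bases on either strand. With C read as T, 21 of the 26 called sites had such matches, although reads are longer than these bases. Sites with no other exact match can have many of these, such as RPS6KB2 with 105, BAG6 with 24, PVRL2 with 10 and QARS with 9. These bases alone therefore do not place converted reads there. Alternatives varied the read minimum, the libraries required or left out, the place of the monosome, weighting, level, transcripts, test and threshold. The statistics were tested on simulated data. For Fisher's test all libraries of a side shared 1 simulated level, so spread between libraries was not covered. Python 3.11.15, scipy 1.17.1, statsmodels 0.14.6 and pandas 2.3.3 were used.

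The compared sites, groups and tests were chosen with earlier results of these data known. The sites named are those past the threshold, up to 30 by smallest p, described by gene group, together with the other members of a group and sites said to be chosen after their values were seen. Gene groups were formed by symbol patterns, and those with no call or a single site are not described except where the text names them.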

Additional observations from a re-analysis of the deposited data

Results flagged for a closer look

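Sites listed on 1 side alone could not be compared, and the deepest of each kind is given here as a signal outside the comparison. Of 211 sites listed before the polysomes alone, the deepest was in RPS29 (ENSG00000213741), a protein of the small ribosomal subunit. This Type I coding site at chr14:50052737 on the minus strand had 13.6% (95% Wilson interval 13.5 to 13.7) of 321057 reads over all 3 subpolysomal libraries, and the monosome library listed it too. Of 131 sites listed on polysomes alone, the deepest was a Type I site in the 3′ UTR of FKBP10 (ENSG00000141756), a prolyl isomerase, at chr17:39978704 on the plus strand, with 11.9% (9.94 to 14.2) of 890 reads in both polysomal libraries, and it was also listed in the monosome library. Of 22 sites in the monosome library alone, the deepest was a Type II coding site of PYCR1 (ENSG00000183010), an enzyme of proline synthesis, at chr17:79892971 on the minus strand, with 10% (5.68 to 17) of 110 reads. All 3 levels lay close to the lowest listed level of 10%, and the sites may have been present below it in the libraries that did not list them, which was not tested.

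As a whole, the sites listed before the polysomes alone had a median level of 13.6%, with 16 at 50% or more, and 49 of them (23.2%) were in genes that are not protein-coding. Those listed on polysomes alone had a median level of 15.8%, with 4 at 50% or more and 3 (2.29%) in such genes. In the 178 compared sites 167 were in protein-coding genes.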

How the results depend on the processing

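Of 71 alternatives to the 5 comparisons, 4 turned the direction of a value, and all 4 were differences between medians of groups of sites. The medians and shares are over sites, which are not replicates, and carry no error. The count of differing sites, 26 as reported, was 17 at an adjusted p under 0.01, 14 of the 33 sites listed in all 5 libraries and 0 by limma on those 33, where 7 had an unadjusted p under 0.05. The median difference of 2.12 points was 3.44 points in all 5 libraries, 3.70 points at a pooled level of 20% or more and 1.10 points with the monosome library added to the polysomal sum. The share of sites higher before the polysomes, 65.7%, was 73.2% at 100 or more reads on each side and 75.8% in all 5 libraries. The median of Type II minus Type I sites turned from -0.189 to 0.706 and 0.227 points, and that of coding minus 3′ UTR sites from 1.28 to -0.849 and -0.223 points, in all 5 libraries and at 20% or more. RPSA turned to -3.73 points and RPSAP15 to -0.131 points with the monosome library in the polysomal sum, where 17 of the 26 sites still passed. The causes were not tested.

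Leaving out 1 library in turn gave 13 to 25 differing sites, the fewest without the heavy polysome library with 12 higher and 1 lower before the polysomes, a median difference of 1.71 to 2.74 points, a share of 63.2% to 71.7%, a Type II minus Type I median of -1.69 to -0.112 points and a coding minus 3′ UTR median of 0.355 to 4.26 points. Of the 26 sites, 6 passed in all 5 fits, and RPSA ranged from -0.426 to 8.27 points. The 6 include GNAS and QARS, which the free library did not list, so the fit without it could not change their differences. With equal weight for each library 8 of 178 sites changed sign, none of them among the 26, and RPSA differed by 4.50 points. No paired analysis was possible because each fraction had 1 library and both sides were single sums. Depth limits the reading of most sites, as the thinner side had a median of 90.5 reads.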
